A study of Mus musculus with 6 samples.

Results

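The genes described here are 9 that mark successive steps of the oligodendrocyte lineage: the transcription factor genes Olig1, Olig2, Sox10 and Nkx2-2, the precursor surface gene Cspg4, the receptor gene Gpr17, and the myelin genes Mbp, Cnp and Mag. They were taken by gene name from a count table of 54532 genes, and each name matched 1 row. The libraries came from cultures of primary cortical astrocytes of mouse pups, with RNA selected by its poly-A tail. The 3 knockout cultures came from pups that carry Cre recombinase together with a floxed Neo1 gene (GFAP-Cre::NEOf/f), so that neogenin, a cell surface receptor of netrins and RGM proteins, is deleted in cells that use the Gfap promoter. The 3 control cultures came from littermates. Their label says no more than control, and the library names give the floxed gene without Cre. In this design Neo1 is kept by cells whose own history and ancestry include no use of the Gfap promoter. Cells in which Cre did not act keep it too. Which cells of the cultures keep Neo1, and how completely Cre acted, was not measured. The sources used here give neither the age or sex of the pups nor their number per culture.

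Oligodendrocytes wrap axons in myelin, and they arise from precursor cells that divide and migrate through the brain before they differentiate. OLIG2 and its neighbour OLIG1 are helix-loop-helix factors that set up the lineage, SOX10 switches on myelin genes within it, and NKX2-2 sets the timing of differentiation. NG2, the proteoglycan encoded by Cspg4, marks precursors, GPR17 marks cells on the way to differentiation, and MBP, CNP and MAG are proteins of the myelin sheath. Glial cultures from newborn cortex can hold precursors beside astrocytes. OLIG2 is also found in some astrocytes and neural progenitors, NG2 in pericytes, and SOX10 in Schwann cells and other neural crest cells.

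The libraries held 74614772 to 97453331 counts in knockout and 60819277 to 106081115 in control cultures. Neo1 was at 101, 106 and 105 CPM in the knockout libraries and at 189, 189 and 198 CPM in the control libraries. CPM is the count per 1000000 counts of a library, here adjusted by TMM, the trimmed-mean scaling of edgeR. The log2 fold change of Neo1, knockout over control, was −0.89 (SE 0.05, adjusted p = 5.8e-11, by the quasi-likelihood test of edgeR, Benjamini-Hochberg adjusted), in the direction the labels give. The level does not measure the deletion itself, since the count pools reads over all exons. Knockout replicate 2 was set off from knockout replicates 1 and 3 along the second principal component (19.6% of the variance). On the first (49.3%), which separated the groups, it lay at −67.0, against −30.0 and −30.5 for knockout replicates 1 and 3. The control libraries lay at 35.8 to 47.1 there. Knockout replicate 2 was thus also the farthest from control on that component. It had the fewest genes detected, 22076, where the other libraries had 23958 to 25767. Fold changes below are log2 values of knockout over control. The words rose and fell are kept for genes with an adjusted p under 0.05 over all 18530 genes tested. Intervals and limits from counts cover counting error only, since reads without molecular identifiers are not independent molecules.

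Of the 9 genes, Olig1, Olig2, Sox10 and Cnp fell in the knockout cultures and Cspg4 rose. Nkx2-2, Mbp and Mag were tested and not called, and Gpr17 was too low to be tested. The 5 called genes are also the 5 whose knockout and control libraries did not overlap. Among all genes tested 38.3% were called, 19.6% as higher and 18.7% as lower, and 49.3% did not overlap between the groups. The share of non-overlapping genes among these 8 is thus near that of all genes, and 4 of 8 called lower stands beside 18.7%. Called with at least a 2-fold change were 5.99% of all genes and, of these 8, Sox10. No test was made of these counts. Sox10 passed the filter on low counts through the control libraries alone, so its presence among the tested genes is not independent of its fall. The median fold change of the 8 tested genes was −0.42, and that of all genes tested was −0.0018. These are bulk cultures, in which fewer cells of the lineage and less RNA per cell cannot be told apart. A change in astrocytes or other cells that use some of these genes cannot be told from either.

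**Figure D1:**
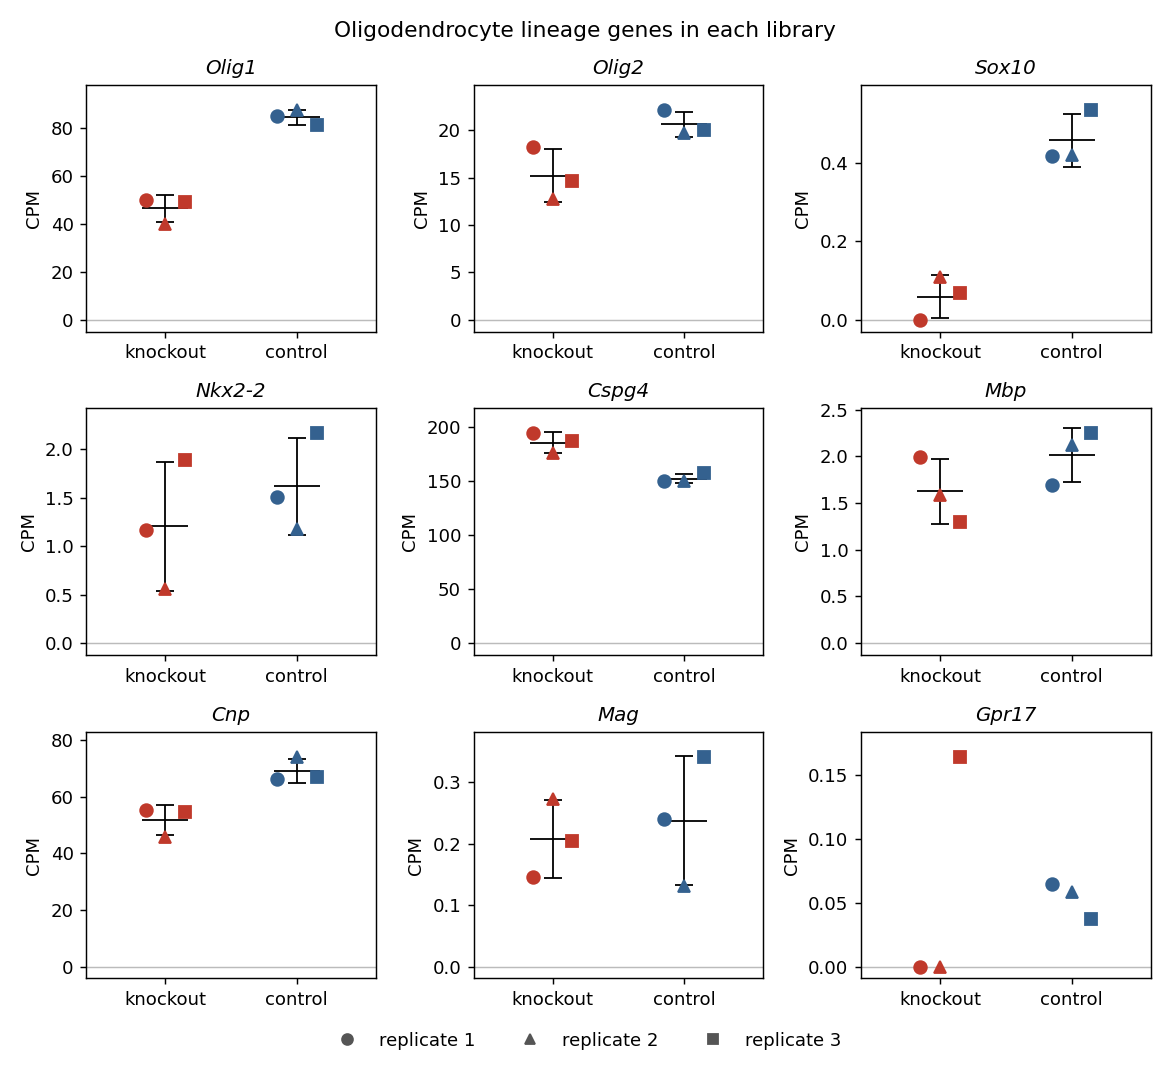
Level of each of the 9 genes in every library, in CPM on a linear axis, with knockout cultures on the left (red) and control cultures on the right (blue). Bars give the mean and SD of 3 libraries and are left out for Gpr17, which had 0 counts in 2 knockout libraries. Olig1, Olig2, Sox10 and Cnp lie lower in all knockout libraries than in any control library, Cspg4 lies higher, and the other 4 genes overlap.

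Olig1 (ENSMUSG00000046160, GRCm38 chromosome 16, 91269772 to 91271933, plus strand) is a gene with a single exon block. It was at 50.1, 39.9 and 49.2 CPM in the knockout libraries, against 84.7, 87.3 and 81.0 CPM in the control libraries. Every knockout library lay well below every control library, and knockout replicate 2 was the lowest. The fold change was −0.86 (SE 0.07, adjusted p = 7.4e-08, edgeR, Benjamini-Hochberg), a level 0.551 times that of control (95% interval 0.494 to 0.613). An antisense transcript gene, Gm15966, shares 157 exon bases with it and had 1 count in all 6 libraries together.

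Olig2 (ENSMUSG00000039830, chromosome 16, 91225457 to 91228677, plus strand) lies 41.1 kb from Olig1 on the same strand. It was at 18.2, 12.7 and 14.7 CPM in knockout libraries, against 22.1, 19.7 and 20.0 CPM in control libraries. The groups did not overlap, but knockout replicate 1 lay close below the lowest control library. The fold change was −0.44 (SE 0.11, 95% interval −0.67 to −0.20, adjusted p = 0.0045 by edgeR), where that of Olig1 was −0.86 with an interval from −1.02 to −0.71. The ratio of Olig1 to Olig2 counts within a library does not depend on scaling. It was 2.75, 3.14 and 3.35 in knockout libraries and 3.83, 4.43 and 4.05 in control libraries. The ratio was thus lower in 3 of 3 knockout libraries (two-sided exact permutation p = 0.1, the smallest that 3 libraries against 3 allow). It is 1 of 2 ratios computed, both chosen after the values were seen, and the Benjamini-Hochberg adjusted p over both is also 0.1.

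Sox10 (ENSMUSG00000033006, chromosome 15, 79154908 to 79165240, minus strand) was scarce in all cultures. It had 0, 8 and 5 counts in the knockout libraries, against 26, 29 and 58 in the control libraries. All control libraries held more than any knockout library, and knockout replicate 1, the deepest of its group, held none. That 0 allows a level of up to 0.0314 CPM (3 counts, counting error only), where the control libraries stood at 0.418, 0.421 and 0.536 CPM. The fold change was −2.98 (SE 0.83, 95% interval −4.74 to −1.23, adjusted p = 0.0083, edgeR, Benjamini-Hochberg). Summed over libraries, 13 knockout and 113 control counts give a rate ratio of 0.114 (95% exact Poisson interval 0.0589 to 0.203, counting error only). The size rests on few reads. The fold change was −2.35 without knockout replicate 1 and −3.81 without knockout replicate 2, and without control replicate 3 the adjusted p was 0.054 (edgeR). Against Olig2 counts of the same library, Sox10 was 0, 0.00860 and 0.00465 in knockout and 0.0189, 0.0213 and 0.0268 in control cultures. This ratio was chosen after both genes had been seen, and it restates the larger fall of Sox10.

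Nkx2-2 (ENSMUSG00000027434, chromosome 2, 147177546 to 147194243, minus strand) was at 1.16, 0.560 and 1.89 CPM in knockout libraries and at 1.51, 1.17 and 2.16 CPM in control libraries. The groups overlapped, and the knockout libraries spread over more than a 3-fold range. The fold change of −0.43 had a 95% interval from −1.21 to 0.35 (adjusted p = 0.40, edgeR, Benjamini-Hochberg), so a fall as large as that of Olig1 lies within it. The value was −0.10 without knockout replicate 2 and −0.90 without knockout replicate 3. An antisense gene, Nkx2-2os, shares 278 exon bases with Nkx2-2. It had 16, 21 and 25 counts in knockout and 6, 8 and 26 in control libraries, and the sources used here do not say whether counting used the strand.

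**Figure D2:**
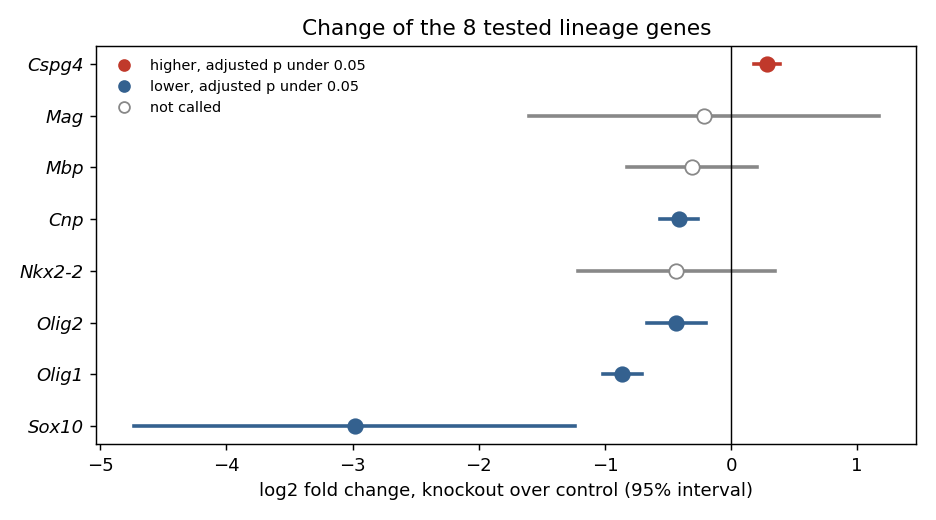
Log2 fold change of knockout over control cultures for the 8 tested genes, with 95% intervals from edgeR's test on 3 libraries a group. Filled points passed an adjusted p of 0.05. Sox10 has the largest change and a wide interval, from −4.74 to −1.23, while Olig1, Olig2 and Cnp have narrow intervals below 0 and Cspg4 one above 0.

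SOX proteins bind a short core motif, and SOX10 is known to switch on myelin genes such as Mag. RefSeq promoters of build GRCm38.p6 were matched for 5 of the 9 genes: Olig2, Nkx2-2, Cspg4, Cnp and Mag. The 250 bases before each start were searched on both strands for the SOX hexamers ACAAAG and ACAATG and for the E-box hexamers CAGATG and CAGCTG, a type of site that helix-loop-helix factors bind. No match of either kind overlapped another in the sequences printed. Capitals mark the SOX hexamer or its reverse complement, and each sequence reads 5′ to 3′ on the strand of its gene. Cnp is chr11:100574689-100574938, plus strand; Mag, for 1 of its 3 starts, is chr7:30914864-30915113, minus strand; Olig2 is chr16:91225300-91225549, plus strand.
Cnp: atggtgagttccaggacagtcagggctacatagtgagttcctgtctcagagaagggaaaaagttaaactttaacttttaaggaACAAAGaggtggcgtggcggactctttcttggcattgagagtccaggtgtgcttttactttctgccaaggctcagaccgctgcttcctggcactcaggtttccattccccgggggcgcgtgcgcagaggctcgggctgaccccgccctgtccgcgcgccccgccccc
Mag: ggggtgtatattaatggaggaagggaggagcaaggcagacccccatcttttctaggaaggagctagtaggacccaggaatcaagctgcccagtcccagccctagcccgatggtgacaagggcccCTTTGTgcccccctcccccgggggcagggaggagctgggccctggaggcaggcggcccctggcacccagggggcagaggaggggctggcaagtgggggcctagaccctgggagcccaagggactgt
Olig2: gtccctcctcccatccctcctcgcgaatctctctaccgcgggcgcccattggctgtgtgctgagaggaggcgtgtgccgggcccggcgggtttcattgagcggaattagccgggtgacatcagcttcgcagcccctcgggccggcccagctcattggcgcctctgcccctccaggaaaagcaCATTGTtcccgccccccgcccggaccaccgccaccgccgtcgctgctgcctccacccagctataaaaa
The hexamer begins 167 bases before the start in Cnp, 126 in Mag and 68 in Olig2. No SOX hexamer was found in this window of Cspg4 or Nkx2-2, and the only E-box hexamer found in any of the 5 was in Nkx2-2, 220 bases before the start. Of all 32851 promoters in the table, 25.2% hold a SOX hexamer and 25.5% an E-box hexamer, so a match is common. Of the 3 starts of Mag, 2 have the SOX hexamer in this window and 1 does not. The windows of those 2 overlap and hold the same site, 126 bases before 1 start and 67 before the other. The sequences shown, of Cnp, Mag and Olig2, were picked because the SOX hexamer was found in them. Of the 5 genes, Cnp and Olig2 fell, Cspg4 rose, and Mag and Nkx2-2 were not called. Any link of the hexamer to these changes was not tested.

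Cspg4 (ENSMUSG00000032911, chromosome 9, 56865033 to 56899870, plus strand), the gene of the precursor proteoglycan NG2, was the only one of the 9 that rose. It was at 194, 175 and 187 CPM in knockout libraries, against 149, 150 and 157 CPM in control libraries. The groups did not overlap, and the difference was a fold of 1.22 (95% interval 1.14 to 1.31). On the log2 scale the change was 0.29 (SE 0.05), with an adjusted p of 1.4e-04 by edgeR. Pericytes and smooth muscle use this gene too. Of 9 of their markers tested, 3 rose and 3 fell, and the summed level of all 10 listed was 3011 to 3062 CPM in knockout and 4121 to 4320 CPM in control libraries. Nearly all of that sum is the smooth muscle actin gene Acta2, and the other 9 summed to 342 to 345 CPM in knockout and 393 to 405 CPM in control libraries. Those that fell were Mcam (−0.93), Tagln (−0.73) and Acta2 (−0.52), and those that rose were Anpep (0.81), Pdgfrb (0.52) and Notch3 (0.19), the last not called without knockout replicate 3, control replicate 1 or control replicate 2. Pdgfrb, which encodes a receptor on mural cells, rose to 115 ± 3.56 CPM in knockout, against 80.3 ± 3.17 CPM in control cultures (SD, n = 3), and the defining pericyte marker Kcnj8 was near 0, with 8 to 12 counts in knockout and 3 to 13 in control libraries. All 7 were named after their values were seen. The part of mural cells in the level of Cspg4 was not tested.

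Gpr17 (ENSMUSG00000052229, chromosome 18, 31942997 to 31949636, minus strand) had 0, 0 and 12 counts in knockout libraries and 4, 4 and 4 in control libraries. All knockout counts came from replicate 3, and the summed count was 12 in each group. The 2 knockout libraries at 0 allow levels of up to 0.0314 and 0.0410 CPM (3 counts each), and the control libraries stood at 0.0643, 0.0580 and 0.0369 CPM. A difference was not detectable at this depth. Its exons share 188 bases with Lims2 on the other strand, which had 147 to 300 counts in knockout and 449 to 701 in control libraries.

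Among the myelin genes, Cnp (ENSMUSG00000006782, chromosome 11, 100574904 to 100591729, plus strand), which encodes an enzyme of the sheath that keeps cytoplasmic channels open, was by far the most abundant. It was at 55.2, 45.8 and 54.4 CPM in knockout libraries, against 66.3, 74.0 and 66.8 CPM in control libraries. The groups did not overlap, and knockout replicate 2 was again the lowest. The fold change was −0.41 (SE 0.07, adjusted p = 1.5e-04, edgeR, Benjamini-Hochberg). Dnajc7 on the other strand shares 154 exon bases, which is 4.23% of the exon bases of Cnp.

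Mbp (ENSMUSG00000041607, chromosome 18, 82475146 to 82585637, plus strand) encodes myelin basic protein, which compacts the sheath, and its locus also gives rise to the golli transcripts found outside oligodendrocytes. The count pools all of these. Mbp was at 1.99, 1.59 and 1.30 CPM in knockout libraries and at 1.69, 2.12 and 2.24 CPM in control libraries. The groups overlapped through knockout replicate 1 and control replicate 1. The fold change of −0.31 had a 95% interval from −0.82 to 0.20 (adjusted p = 0.35, edgeR, Benjamini-Hochberg).

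Mag (ENSMUSG00000036634, chromosome 7, 30899176 to 30914873, minus strand) encodes an adhesion protein that faces the axon. It had 14, 20 and 15 counts in knockout libraries and 15, 9 and 37 in control libraries. The groups overlapped: the control libraries held both the highest level, 0.342 CPM in replicate 3, and the lowest, 0.131 CPM in replicate 2. The fold change of −0.21 had a 95% interval from −1.60 to 1.17 (adjusted p = 0.84, edgeR, Benjamini-Hochberg), and its sign turned to 0.16 without control replicate 3.

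Levels of different genes were compared per length, as TPM over the exon bases of each gene. In knockout cultures Olig1 was highest at 75.2 ± 9.19 TPM, followed by Cspg4 at 54.4 ± 2.76, Cnp at 49.9 ± 5.07 and Olig2 at 21.1 ± 3.85 TPM (SD, n = 3). In control cultures the order was Olig1 at 139.9 ± 3.82, Cnp at 68.0 ± 4.02, Cspg4 at 45.7 ± 1.92 and Olig2 at 29.2 ± 1.69 TPM (SD, n = 3). Cspg4 and Cnp overlapped in knockout cultures and stood apart, in the other order, in control cultures. Below these came Nkx2-2 at 1.47 ± 0.815 and Mbp at 0.672 ± 0.141 TPM in knockout cultures, against 2.02 ± 0.654 and 0.855 ± 0.132 TPM in control cultures. Nkx2-2 and Mbp overlapped in knockout libraries. Mag was at 0.179 ± 0.0545 TPM in knockout and 0.210 ± 0.0957 TPM in control cultures. Sox10 lay below Mag in knockout cultures, at 0 to 0.125 TPM, and above it in control cultures, at 0.487 to 0.639 TPM. The genes with the lowest level, Sox10 and Gpr17, overlapped in knockout libraries. The 10 astrocyte markers, by contrast, had mean levels of 28.9 to 494 TPM in knockout and 27.5 to 804 TPM in control cultures, so the labelled cell type has its defining markers. Olig1, Cspg4 and Cnp lay within that range in both groups, Olig2 within it in control cultures, and the other 5 genes far below it. The fibroblast gene Col1a1, at 1589 ± 152 TPM in knockout and 1065 ± 30.6 TPM in control cultures, and Acta2, at 4283 ± 41.7 TPM in knockout and 6285 ± 92.3 TPM in control cultures, were above every astrocyte marker (SD, n = 3, named after their values were seen).

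**Figure D3:**
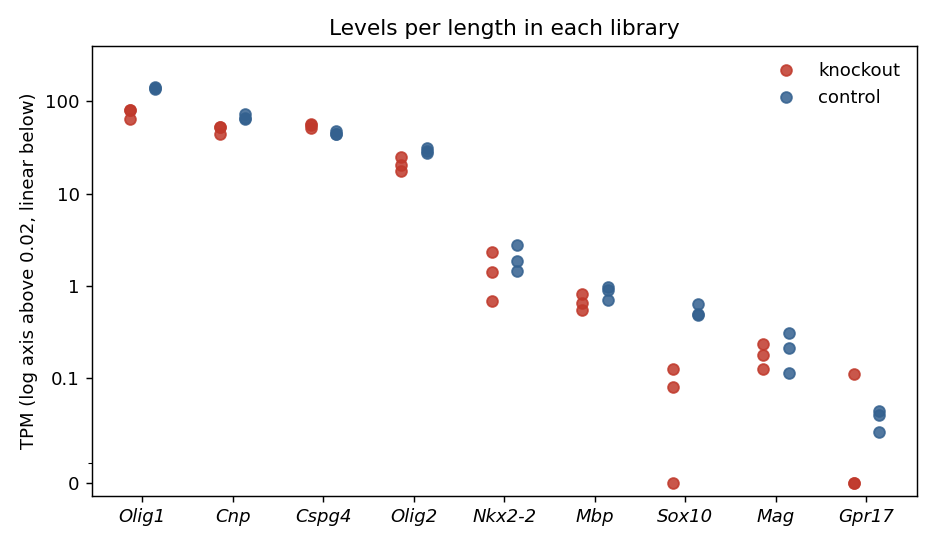
Level per length of the 9 genes in each library, in TPM, with knockout libraries to the left (red) of control libraries (blue). The axis is logarithmic above 0.02 and linear below. Olig1, Cnp, Cspg4 and Olig2 lie at 17.6 TPM or more in every library, Mbp, Sox10, Mag and Gpr17 at 0.965 TPM or less.

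The libraries of a group did not deviate alike for all 9 genes. Knockout replicate 2 was the lowest of the knockout libraries for Olig1, Olig2, Nkx2-2, Cspg4 and Cnp and the highest for Sox10 and Mag. Without it the fold change was −0.76 for Olig1, −0.32 for Olig2 (adjusted p = 0.013, edgeR), −0.33 for Cnp and 0.32 for Cspg4. All 4 were still called. For each tested member, the gene outside the set whose log2 CPM followed it most closely over the 6 libraries was found, among 12933 genes whose log2 CPM averaged 1 or more, by the root mean square distance of centred values, as a description. The nearest were March2 for Cnp at 0.0212, Meg3 for Cspg4 at 0.0250, Igfbp2 for Olig1 at 0.0299 and Daglb for Olig2 at 0.0312 log2 units. Mbp was nearest to Lhfpl3 at 0.0651, itself a gene of oligodendrocyte precursors. The distances were larger for Mag (Gm10076, 0.208), Nkx2-2 (Fezf2, 0.276) and Sox10 (F2rl1, 0.758). These 3 genes and Mbp are themselves under that level, so genes as low as they are were not searched.

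Further genes of the lineage were set beside the 9, in lists by stage. In each list the counts called stand beside the shares among all genes tested, 19.6% higher and 18.7% lower. Precursor genes split, with 5 higher and 6 lower of 15 tested (17 listed, median −0.31). Vcan, a matrix proteoglycan, rose to 364 ± 14.5 CPM in knockout, against 125 ± 11.2 CPM in control cultures, and Pdgfra, the PDGF receptor that drives precursor division, to 14.1 ± 0.585 CPM, against 7.64 ± 0.598 CPM in control cultures (SD, n = 3). Their fold changes were 1.54 and 0.88, and edgeR gave adjusted p-values of 9.2e-13 and 2.4e-06. C1ql1, a secreted synaptic organiser, fell to 8.40 ± 0.787 CPM in knockout, against 19.0 ± 0.587 CPM in control cultures, and Sox8, which encodes a close relative of SOX10, to 18.0 ± 0.314 CPM, against 30.6 ± 1.71 CPM in control cultures. Their fold changes were −1.18 and −0.76, and edgeR gave adjusted p-values of 2.5e-08 and 1.7e-07. Sox8 did not overlap between the groups, and with at least 1313 counts in every library it was far better measured than Sox10. Neu4 had 0 counts in all 6 libraries. Pdgfra is also a gene of fibroblasts, of whose 6 markers, Pdgfra included, all 6 rose. Their summed level was 4643 to 5258 CPM in knockout and 2989 to 3178 CPM in control libraries, and their part in the rise of Pdgfra or Vcan was not tested.

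Of 12 genes of committed and newly formed oligodendrocytes, 10 were tested, 1 rose and 2 fell (median −0.03). Of all genes tested, 19.6% were called higher and 18.7% lower. Itpr2, a calcium release channel, rose to 41.0 ± 1.34 CPM in knockout, against 25.5 ± 1.99 CPM in control cultures (0.68, adjusted p = 4.4e-07, edgeR). Rras2, a small GTPase, fell to 77.0 ± 1.69 CPM in knockout, against 108.8 ± 3.01 CPM in control cultures (−0.50, adjusted p = 2.6e-07, edgeR). Bmp4, a ligand that turns precursors away from differentiation, fell to 3.51 ± 0.685 CPM in knockout, against 6.39 ± 0.560 CPM in control cultures (−0.86, adjusted p = 3.7e-04, edgeR). Under total-count scaling 4 genes of this list were lower, and the median was 0.06 without control replicate 2.

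Of 22 further myelin and mature oligodendrocyte genes, 13 were tested, 1 rose and 5 fell (median −0.69). The shares among all genes tested were 19.6% higher and 18.7% lower. Most were barely present: 15 of the 22 were under 1 CPM in both groups, and Gjb1 had 0 counts throughout. Mog, which encodes a myelin surface protein, had 0, 0 and 3 counts in knockout and 2, 4 and 14 in control libraries, and was named after its values were seen. Tspan2, a tetraspanin, fell to 28.8 ± 3.16 CPM in knockout, against 46.4 ± 2.31 CPM in control cultures (−0.69, adjusted p = 1.2e-06, edgeR). Car2, carbonic anhydrase 2, fell to 19.4 ± 2.30 CPM in knockout, against 28.9 ± 0.335 CPM in control cultures (−0.57, adjusted p = 2.8e-05, edgeR), and Mal, a raft proteolipid, to 3.42 ± 0.828 CPM, against 7.29 ± 0.847 CPM in control cultures (−1.09, adjusted p = 5.3e-05, edgeR). Apod, an apolipoprotein that fibroblasts also make, rose to 12.3 ± 2.53 CPM in knockout, against 7.44 ± 0.764 CPM in control cultures (0.73, adjusted p = 3.6e-04, edgeR).

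Of 11 signals that act on precursors, all tested, 6 were called higher and 2 lower (median 0.25), where 19.6% of all genes were called higher and 18.7% lower. Cxcl1, a chemokine that restrains precursor migration, rose to 1264 ± 59.0 CPM in knockout, against 541 ± 13.0 CPM in control cultures, a fold change of 1.23. Lif, a survival cytokine, rose to 793 ± 4.33 CPM, against 551 ± 4.04 CPM in control cultures (0.53), and the mitogen gene Fgf2 to 143 ± 6.73 CPM, against 113 ± 7.77 CPM in control cultures (0.33). Pdgfa, the ligand of PDGFRA, fell to 82.0 ± 2.85 CPM in knockout, against 119.7 ± 2.90 CPM in control cultures (−0.55). The adjusted p-values of these 4 were 2.9e-13, 4.4e-09, 1.1e-04 and 8.6e-08 by edgeR, in the order given. Of 6 negative regulators of differentiation 5 were tested and 2 called, both lower (median 0.03, from −0.26 without knockout replicate 2 to 0.11 with no filter). Id4, which holds back helix-loop-helix factors, fell to 43.9 ± 4.24 CPM in knockout, against 55.0 ± 0.833 CPM in control cultures (−0.33, adjusted p = 7.8e-04, edgeR). Lingo1, a neuronal and glial receptor component, fell to 6.92 ± 0.674 CPM in knockout, against 8.81 ± 0.528 CPM in control cultures (−0.35, adjusted p = 0.029, edgeR), and was no longer called in 4 of the 6 fits that leave out 1 library: without knockout replicate 1 or 2 and without control replicate 1 or 2 (adjusted p from 0.027 to 0.098 over the 6).

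**Figure D4:**
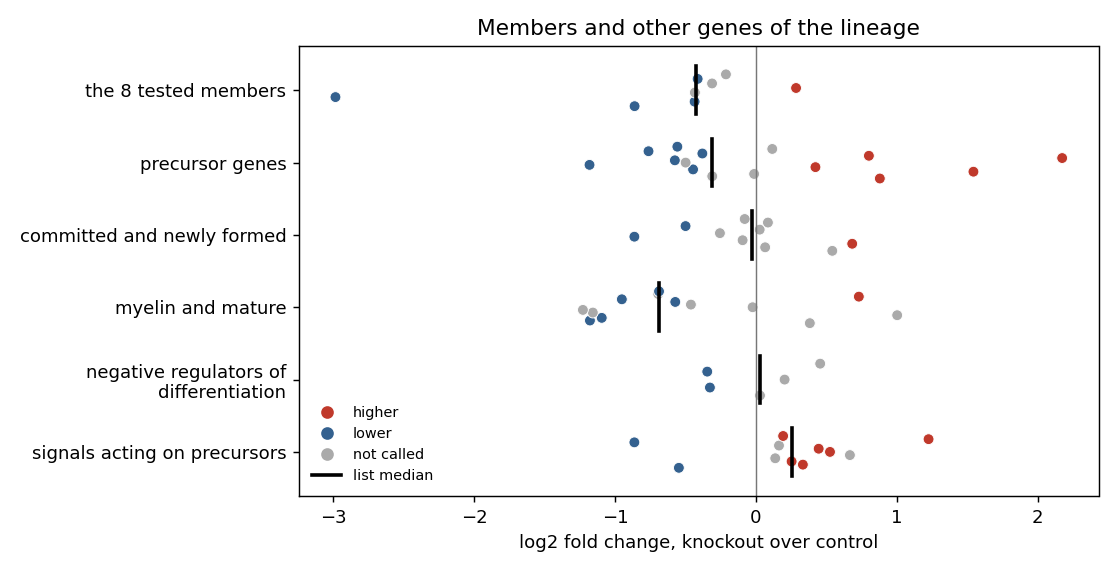
Log2 fold change of knockout over control cultures for the 8 tested members and the tested genes of 5 further lists, 1 point a gene, with the black line at the list median. Precursor genes lie on both sides of 0 and the median of the myelin and mature genes is −0.69.

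Markers of cells other than oligodendrocytes were counted too, beside the 38.3% of all genes that were called. Of 9 markers of Schwann and neural crest cells, which share Sox10, Mbp and Mag, 8 were tested, 1 rose and 3 fell. Their summed level was 90.6 to 92.4 CPM in knockout and 139.7 to 145.6 CPM in control libraries. Pmp22, at 47.3 CPM in knockout and 95.5 CPM in control cultures, was the largest part of these sums. It fell (−1.01), as did Ngfr (−0.61) and Prx (−0.52), while Pou3f1 rose (1.18). All were named after their values were seen. Foxd3, a defining neural crest factor named after its values were seen, was near 0, with 4, 4 and 0 counts in knockout and 9, 7 and 29 in control libraries. Astrocyte markers numbered 2 higher and 6 lower of 10, at 2719 to 2848 CPM in sum in knockout and 2966 to 3031 CPM in control libraries. These sums combine changes in both directions. Slc1a2 (1.48) and Aqp4 (0.54) rose. Gfap (−1.13), Aldoc (−0.86), Aldh1l1 (−0.41), Slc1a3 (−0.34), Gja1 (−0.21) and Glul (−0.15) fell, and all were named after their values were seen. Gfap was at 431 CPM in knockout and 946 CPM in control cultures. Microglia and macrophage markers numbered 1 higher and 5 lower of 8, with sums of 35.7 to 40.4 CPM in knockout and 48.9 to 55.5 CPM in control libraries. Cd68, not called, was at 18.7 CPM in both groups, the largest part of these sums. Those that fell were Aif1 (−2.63), Cx3cr1 (−2.37, not called without control replicate 3), C1qa (−2.13), Csf1r (−0.92) and Itgam (−0.86). Tmem119 rose (0.54), and all were named after their values were seen. Of 7 neuron markers tested 2 were called, both lower, with sums of 348 to 365 CPM in knockout and 408 to 422 CPM in control libraries. Most of these sums was Stmn2, at 225 CPM in knockout and 284 CPM in control cultures. The genes called were Stmn2 (−0.34) and Tubb3 (−0.30), both named after their values were seen. The part of each of these cell types in the levels of the 9 genes was not tested.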

How the data were processed

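The values deposited by the authors are raw counts of reads per gene. Per the submitters' processing notes they were made with HISAT2 2.2.1 and featureCounts 2.0.6, on GRCm38 (mm10). Which annotation was used, whether counting used the strand and how multi-mapped reads were treated was not given in the sources used here. Columns were assigned by library name. Genes passing filterByExpr by genotype (minimum count 10, minimum total 15) went into edgeR 4.0.16 (R 4.3.3) with TMM scaling, robust glmQLFit and a two-sided glmQLFTest for genotype, and p-values were adjusted by Benjamini-Hochberg across all of them. Standard errors came from the test statistic. TPM used union exon lengths of GENCODE annotation of the same build, and BLAST 2.17.0 was used to look for near-identical copies (at least 95% identity over 100 bases), which found only the overlapping antisense or opposite-strand genes of Olig1, Nkx2-2 and Gpr17.

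The fit was tested on simulated counts first, where it missed part of the changed genes and its share of false calls was somewhat above the nominal threshold. No pair of libraries within a group was a duplicate: their chi-square per gene was 5.92 or more. The labels call them biological replicates but name no culture or pup, so the spread behind the p-values may be technical in part. Members and lists were chosen with earlier results of these data known. Named genes are all members, up to 4 called genes of each list with the smallest p and any gene with 0 counts throughout; others are said to be named after their values were seen. Alternatives were RLE and total-count scaling, DESeq2 1.42.0, limma-voom (limma 3.58.1), no filter, 1 CPM in 3 libraries, no robust option, a replicate block, a threshold of 0.01 and each library left out. Some genes of the lists are counted but not reported by name here.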

Additional observations from a re-analysis of the deposited data

How the results depend on the processing

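Across the 15 other settings tried, 116 of 118 fold changes of the members kept their direction and their side of the threshold. The exceptions were Sox10, not called without control replicate 3, and Mag, whose sign turned without that library. Leaving out 1 library at a time gave fold changes from −3.81 to −2.35 for Sox10 (adjusted p from 0.0045 to 0.054, edgeR) and from −0.50 to 0.16 for Mag, and 3 to 4 members called lower. It gave 1 to 2 committed genes higher, 1 to 2 myelin genes higher, and among negative regulators 0 to 1 higher and 1 to 2 lower. Under total-count scaling 4 committed genes were lower; with no filter 1 negative regulator was higher; at a threshold of 0.01, 1 was lower. That no negative regulator was called higher by edgeR held by DESeq2 and limma-voom (0 each), and 0 were higher at an unadjusted p under 0.05. The causes were not tested. Of all genes, 3627 were higher and 3466 lower, against 2921 and 4499 under total-count scaling. With 1 CPM in 3 libraries, Sox10 and Mag were not tested. With no filter Gpr17 had a fold change of 0.03 (SE 1.87, adjusted p = 0.99, edgeR).

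The replicate numbers pair nothing in the labels, and same-numbered libraries did not deviate together (correlations of −0.00821 to 0.0194 across genes). With a replicate block the fold changes were −0.87 for Olig1, −0.45 for Olig2, −3.22 for Sox10, 0.28 for Cspg4 and −0.42 for Cnp, 1 member was higher and 4 lower, and no call of a member changed. Depth limits Sox10, Mag and Gpr17, which had at most 58 counts in any library.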
